A study of Arabidopsis thaliana with 16 samples.

Results

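Transcripts of 2 GDSL lipase genes, *AT1G54020* and *AT2G23540*, were followed through somatic embryogenesis in *Arabidopsis thaliana*. They are 2 of the 13286 genes that the annotation used here pairs with a probe set of their own, and each is read by 1 probe set. Both were picked from values measured on these arrays. *AT1G54020* was chosen because its WT signal was high in mature somatic embryos alone, and *AT2G23540* because it differed between *vtc2-5* and WT zygotic embryos. Those contrasts, and all others that use the same arrays, are therefore given below as descriptions without a test.

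The mutant group was *vtc2-5*, called vtc2 in the sample labels, a single T-DNA insertion line in a gene of ascorbate (vitamin C) synthesis. The WT group was Col-0, the ecotype that both groups share. Bent-cotyledon zygotic embryos of both genotypes were taken before culture, and explants were taken after 7 d (D7I) and 14 d (D14I) on medium with the synthetic auxin 2,4-D. Mature somatic embryos were taken after a further 14 d on medium without 2,4-D. The 2 genotypes at 4 stages gave 8 groups, with 2 biological replicates in each group and 1 ATH1 GeneChip for each replicate, and all D7I, D14I and mature samples of both genotypes had been exposed to 2,4-D.

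GDSL lipases are hydrolases of esters and lipids, named after a short sequence motif around the serine of their active site. In plants they form a large family of mostly secreted proteins. Members are known for building or breaking down the cutin of the cuticle and the suberin of roots and seed coats, for mobilizing seed oil, and for roles in pollen coats and in defence. Neither of the 2 genes has a role of its own given in the sources used here.

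The values are signals on a linear scale, set by the authors to a common 2% trimmed mean of 500. Array medians ran between 148 and 199, and a signal of 30 was exceeded by 69.2 to 78.1% of probe sets. A signal below 30 is treated here as weak, so that the size of a difference that rests on one is uncertain. Differences are those of mean log2 signals, tested with limma in 1 fit of all 16 arrays, with p values adjusted by the method of Benjamini and Hochberg across 22746 probe sets. A gene was called at an adjusted p under 0.05 with at least a 2-fold difference. *VTC2*, the gene that carries the insertion, was not analysed here because the annotation pairs no probe set with it. Of 12 markers of the maturing embryo 0 were paired with a probe set, so the stage labels could not be checked against that list. In whole tissue, fewer cells that express a gene and less RNA per cell cannot be told apart.

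*AT1G54020* gave a strong signal in mature somatic embryos of both genotypes and a weak one elsewhere. In *vtc2-5* tissues its signals were 9.57 and 7.56 in zygotic embryos, 33.5 and 27.8 at D7I, 9.81 and 23.5 at D14I, and 741 and 939 in mature somatic embryos. In WT tissues they were 1.09 and 5.14 in zygotic embryos, 4.20 and 3.48 at D7I, 2.36 and 4.48 at D14I, and 1217 and 651 in mature somatic embryos. Every mature somatic embryo array thus lay far above every array of the earlier stages, and the *vtc2-5* pair of mature arrays lay between the WT pair. The lower mature *vtc2-5* array was 22.1 times the highest earlier *vtc2-5* array. Both mature *vtc2-5* arrays exceeded the 6 other *vtc2-5* arrays, which was the case for 13.7% of all probe sets.

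The gene was chosen on its WT stage profile, not on its *vtc2-5* arrays, though with earlier results of these data known. Its stage changes in *vtc2-5* were therefore tested. A gene picked as high in WT mature somatic embryos is likelier than other probe sets to be high there in *vtc2-5* too. The share over all probe sets is thus only a loose comparison. *AT1G54020* rose in mature somatic embryos of *vtc2-5* relative to D14I by 5.78 on the log2 scale (SE 0.68), with a limma adjusted p of 3.11e-04. Of all probe sets, 11.3% were called higher in that comparison. The call did not rest on any one array: with each of the 16 left out in turn, the difference was 5.15 to 6.41 and was called in 16 of 16 fits. Because the D14I signals were weak, the size of the change is less certain than its direction. When signals below 30 were set to 30 the difference was 4.80 (SE 0.24). Against the mean of the 3 earlier *vtc2-5* stages, mature somatic embryos were higher by 5.72 (SE 0.56, limma adjusted p = 8.77e-05), beside 11.2% of probe sets called higher.

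The earlier changes in *vtc2-5* were not called, and the signals behind them lay at 7.56 to 33.5, of which 1 array exceeded 30. The D7I arrays exceeded zygotic embryos by 1.84 (SE 0.68, limma adjusted p = 0.0560), which was not called, while 18% of probe sets were called higher there. It was called when WT zygotic embryo replicate 1 or 2 was left out (limma adjusted p = 0.0138 for each). With signals below 30 set to 30 the difference shrank to 0.08. The difference between D14I and D7I was -1.01 (SE 0.68, limma adjusted p = 0.462), beside 3.9% of probe sets called in either direction.

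**Figure D1:**
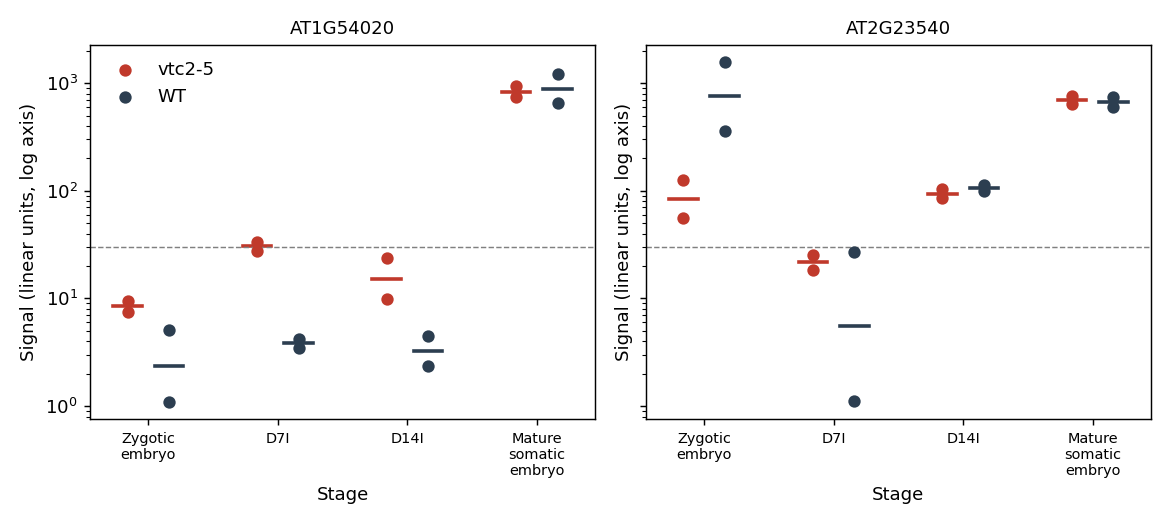
Signal of *AT1G54020* (left) and *AT2G23540* (right) on a log axis, by stage, with 1 point for each array (*vtc2-5* left of WT within a stage) and a bar at the geometric mean of the 2 arrays. The dashed line marks a signal of 30. *AT1G54020* lay at or below about that line at the 3 earlier stages and between 651 and 1217 in mature somatic embryos, whereas *AT2G23540* was high in WT zygotic embryos, lowest at D7I and between 603 and 754 in mature somatic embryos.

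Between genotypes, *AT1G54020* is described without a test, since the WT arrays chose it. The *vtc2-5* minus WT difference of zygotic embryos was 1.85, that of D7I was 3.00, that of D14I was 2.22 and that of mature somatic embryos was -0.09 on the log2 scale (SE 0.68 each). The 6 *vtc2-5* arrays of the 3 earlier stages, at 7.56 to 33.5, all lay above the 6 WT arrays, at 1.09 to 5.14. That order was seen in 0.0703% of all probe sets, and nothing is read from it because the gene had been picked for low WT signals at those stages. All but 1 of these 12 signals were below 30. With signals below 30 set to 30, the difference at D7I was 0.08. In WT the mature somatic embryos differed from D14I by 8.09, which is part of the pattern that chose the gene. Ordered by geometric mean, WT mature somatic embryos (890) and *vtc2-5* mature somatic embryos (834) came first and overlapped. They were followed by *vtc2-5* at D7I (30.5), D14I (15.2) and the zygotic stage (8.50), and then by WT at D7I (3.82), D14I (3.25) and the zygotic stage (2.36). The 3 WT groups at the end of this order overlapped one another.

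*AT2G23540*, a GDSL-motif lipase/hydrolase gene, had another profile, with its lowest signals at D7I and high signals in mature somatic embryos of both genotypes and in WT zygotic embryos. In *vtc2-5* tissues its signals were 55.5 and 127 in zygotic embryos, 25.2 and 18.5 at D7I, 85.3 and 104 at D14I, and 754 and 638 in mature somatic embryos. In WT tissues they were 1583 and 361 in zygotic embryos, 27.2 and 1.11 at D7I, 99.8 and 113 at D14I, and 603 and 742 in mature somatic embryos. The genotypes overlapped at D7I and in mature somatic embryos, and at D14I the *vtc2-5* array at 104 lay within the WT pair. They were apart only in zygotic embryos, where both *vtc2-5* arrays were below both WT arrays.

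The zygotic difference chose this gene. The mean signal was 91.1 ± 50.3 in *vtc2-5* zygotic embryos and 972 ± 864 in WT zygotic embryos (SD, n = 2 each), and the log2 difference was -3.17 (SE 1.21). The ratio of the means, WT over *vtc2-5*, was 10.7, but the nearest pair of arrays, 361 in WT over 127 in *vtc2-5*, differed only 2.85-fold. The WT replicates differed 4.38-fold from each other and the *vtc2-5* replicates 2.28-fold. Of all probe sets, 17.4% had both *vtc2-5* zygotic arrays below both WT arrays, and nothing is read from that order for a gene picked on it.

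In culture, where the arrays had not chosen the gene, no difference between the genotypes passed the test. The *vtc2-5* minus WT difference was 1.97 at D7I (limma adjusted p = 0.399), -0.17 at D14I (0.9998) and 0.05 in mature somatic embryos (0.986), with a SE of 1.21 each. The shares of probe sets called in these 3 comparisons were 2.7%, 0.022% and 3.84%. The value at D7I came from a single array, since *vtc2-5* had 25.2 and 18.5 and WT had 27.2 and 1.11, and without the WT array at 1.11 the difference was -0.33. Over the 3 culture stages together the difference was 0.62 (SE 0.70, limma adjusted p = 0.776), with 0.0484% of probe sets called. The 95% interval of the difference in mature somatic embryos, -2.65 to 2.75, leaves room for a change of several fold either way. The mature arrays themselves were close, at 696 ± 82.4 in *vtc2-5* and 673 ± 98.4 in WT (SD, n = 2 each). The genotype difference did not pass a test of change between D7I and D14I (-2.14, limma adjusted p = 0.709, beside 0.0132% of probe sets called) or between D14I and mature somatic embryos (0.22, limma adjusted p = 0.962, beside 0.101%).

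From D7I onwards the *AT2G23540* signal was higher at each later stage. All 4 D14I arrays, 85.3 and 104 in *vtc2-5* and 99.8 and 113 in WT, lay above all 4 D7I arrays, as 11.6% of probe sets did. All 4 mature somatic embryo arrays, at 603 to 754, lay above the 8 arrays of D7I and D14I, as 10.5% of probe sets did. Within WT, D14I exceeded D7I by 4.27 (SE 1.21), which only just passed (limma adjusted p = 0.0494, beside 4.15% of probe sets called higher). This call rests on the WT D7I array at 1.11. With signals below 30 set to 30 the difference was 1.82 and was not called (limma adjusted p = 0.0780), and it was called in 3 of the 16 fits that left out 1 array (without WT zygotic embryo replicate 1 or 2, or without WT D7I replicate 1). The replicate number as a block also ended the call (limma adjusted p = 0.0565). Within *vtc2-5*, D14I exceeded D7I by 2.13 (limma adjusted p = 0.367), beside 1.51% of probe sets called higher, and was not called.

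Mature somatic embryos exceeded D14I by 2.88 in *vtc2-5* (SE 1.21, limma adjusted p = 0.0971) and by 2.66 in WT (limma adjusted p = 0.163), and neither passed. The shares of probe sets called higher were 11.3% in *vtc2-5* and 9.96% in WT. The SE is shared by all groups, among them the wide WT pairs of zygotic embryos (1583 and 361) and D7I (27.2 and 1.11), and without either WT D7I array it was 0.62. Where the weak signals were set to 30, both differences kept their size and were called (limma adjusted p = 0.00573 in *vtc2-5* and 0.0124 in WT). They were called as well when 30 was added to every signal (0.00208 in *vtc2-5* and 0.00471 in WT), when either WT D7I array was left out (0.00880 in *vtc2-5* and 0.0186 in WT), and when the fit held the compared groups alone (0.0138 in *vtc2-5* and 0.0341 in WT). The ratio of the mean signals, mature over D14I, was 7.35 in *vtc2-5* and 6.34 in WT.

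**Figure D2:**
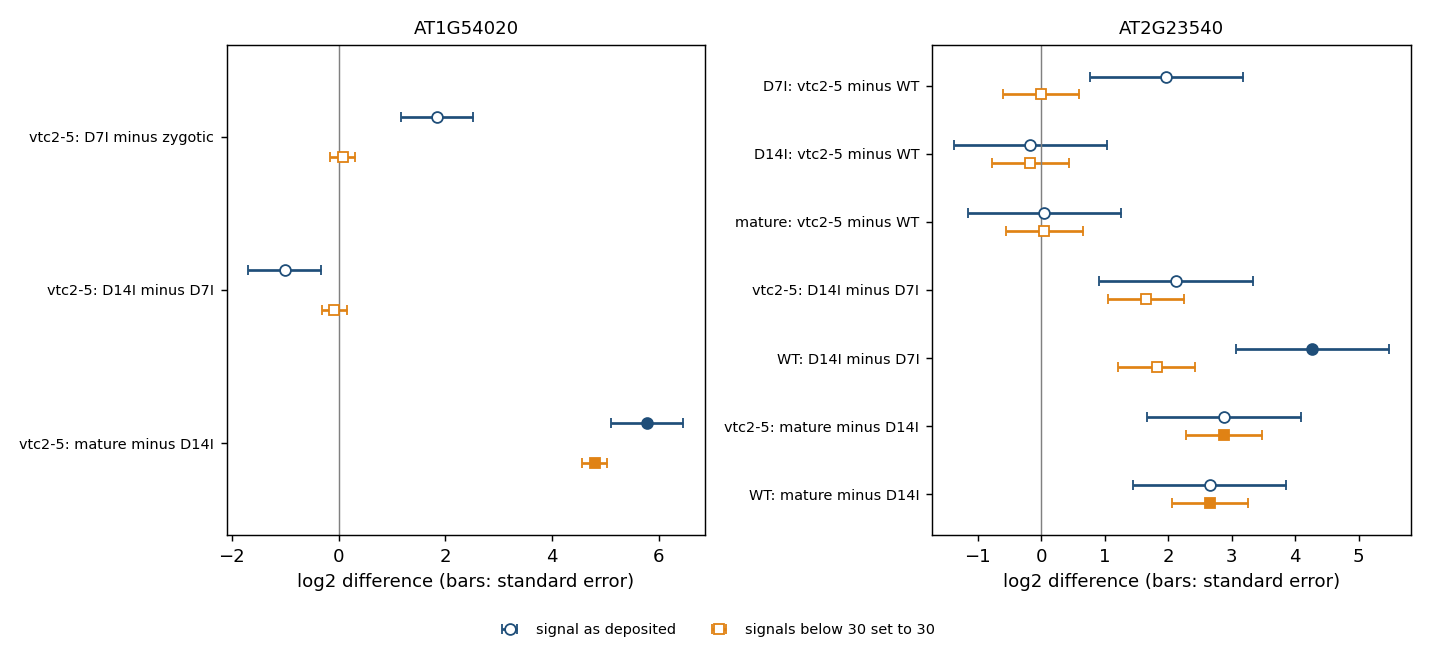
Tested differences of *AT1G54020* (left) and *AT2G23540* (right) on the log2 scale, with bars of 1 standard error. Circles use the deposited signals and squares the signals with values below 30 set to 30, and filled symbols were called. The mature minus D14I difference of *AT1G54020* in *vtc2-5* was called in both forms (5.78 and 4.80), whereas for *AT2G23540* the D14I minus D7I difference in WT was called only with the deposited signals (4.27) and the mature minus D14I differences only with the second form (2.88 in *vtc2-5* and 2.66 in WT).

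Against zygotic embryos, *AT2G23540* is again described only. D7I minus zygotic embryos was -1.96 in *vtc2-5* and -7.10 in WT, both with a SE of 1.21. Mean signals in mature somatic embryos were 7.65 times those of zygotic embryos in *vtc2-5* and 0.692 times in WT. Ordered by geometric mean, WT zygotic embryos (756), mature somatic embryos of *vtc2-5* (694) and mature somatic embryos of WT (669) came first and overlapped. WT at D14I (106), *vtc2-5* at D14I (94.2) and *vtc2-5* zygotic embryos (83.8) followed and also overlapped. *vtc2-5* at D7I (21.6) and WT at D7I (5.50) came last, with the *vtc2-5* pair inside the range of the WT pair.

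A seed coat marker gene, *BAN*, had signal in the zygotic embryo samples, and no amount of seed coat is read from this single gene. Of 12 seed coat markers 2 were paired with a probe set, and the sum of their signals was 120 to 275 in *vtc2-5* zygotic embryos and 222 to 567 in WT zygotic embryos, against at most 19.8 in any culture array. Most of this sum was *BAN* (*BANYULS*), the anthocyanidin reductase gene of the seed coat. *BAN* had 262 and 108 in *vtc2-5* zygotic embryos and 199.99 and 532 in WT zygotic embryos. Within each genotype the zygotic array with more *BAN* had less *AT2G23540*: 55.5 beside 262 against 127 beside 108 in *vtc2-5*, and 361 beside 532 against 1583 beside 199.99 in WT. Between genotypes, *BAN* was lower in *vtc2-5* zygotic embryos (geometric mean 168) than in WT (326), the same side as *AT2G23540*, though its arrays overlapped. The other measured marker, *AT3G50990*, had 13.1 and 11.6 in *vtc2-5* zygotic embryos and 22.1 and 35.4 in WT zygotic embryos. Of 10 endosperm markers 2 were measured, and their sum was 16.9 to 41.5 in *vtc2-5* zygotic embryos and 30.6 to 45.6 in WT zygotic embryos. The part of other seed tissues in the zygotic difference was not tested.

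Single markers stood for the other cell types. *GSO1*, from a list of 9 root endodermis genes, had its highest signals in zygotic embryos, at 1369 to 1710 in *vtc2-5* and 1247 to 1488 in WT. In mature somatic embryos it was at 396 to 420.4 in *vtc2-5* and 283 to 355 in WT. *CR4*, from a list of 5 epidermis genes, was at 45.5 to 69.7 in mature somatic embryos of *vtc2-5* and 36.9 to 62.2 in those of WT, and at 432 to 470 in zygotic embryos of *vtc2-5* and 404 to 416 in those of WT. The 1 measured gene of 3 for myrosin cells had 18.3 to 40.2 in mature somatic embryos of *vtc2-5* and 10.9 to 27.9 in those of WT. At D7I *CR4* and *GSO1* differed between the genotypes, and no amount of a cell type is read from either single gene. *CR4* was at 151 to 166 in *vtc2-5* and 49.2 to 76.8 in WT (1.36, limma adjusted p = 0.0479), beside 1.98% of probe sets called higher. *GSO1* was at 135 to 224 in *vtc2-5* and 415 to 493 in WT (-1.38, limma adjusted p = 0.0236), beside 0.717% called lower. The part of cell types in the D7I values of *AT1G54020* and *AT2G23540* was not tested.

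Other GDSL genes were taken from a list of 22, of which 6 were paired with a probe set besides the 2 genes above. The list was written by hand and may not cover the family, and genes outside it were not searched for members. The signals of several were low. *AT1G75890* reached at most 21.2, *AT1G75920* at most 37.5 and *AT1G75880* at most 40.3 on any array, and *AT5G33370* did not exceed 52.6. The sizes of log2 differences of these genes are therefore uncertain. Of the 6, 2 rose in *vtc2-5* D7I relative to *vtc2-5* zygotic embryos, beside 18% of all probe sets called higher. *AT1G75880* was one, with 32.6 and 40.3 at D7I and weak signals of 0.927 and 1.23 in zygotic embryos (5.08, SE 0.96, limma adjusted p = 0.00202). *AT1G75900* was the other, by 1.13 (limma adjusted p = 0.0425). In mature somatic embryos of *vtc2-5* relative to D14I 1 of the 6 rose and 1 fell, beside 11.3% of probe sets called higher and 11.2% lower.

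The gene that fell was *AT1G75880*, with 2.60 and 3.08 in mature somatic embryos and 22.3 and 39.9 at D14I (-3.40, limma adjusted p = 0.0226). Both mature signals and 1 of those at D14I were below 30, so the size of that fall is uncertain. The one that rose was *AT5G37690*, by 2.78 (SE 0.79, limma adjusted p = 0.0231). In WT D7I relative to zygotic embryos *AT5G33370* rose by 2.40 (limma adjusted p = 0.0497) and *AT5G37690* fell by 3.04 (limma adjusted p = 0.0127), beside 15.7% of probe sets called higher and 12% lower. Between genotypes, 1 of the 6 was called, in mature somatic embryos, beside 1.69% of probe sets called higher. *AT1G75900* had 157 and 105 in *vtc2-5* and 44.3 and 39.3 in WT, a difference of 1.62 (SE 0.39, limma adjusted p = 0.0399). The call was lost in 15 of 25 alternatives, the replicate block among them. At the zygotic, D7I and D14I stages limma called 0 of the 6 between genotypes, beside 0.0352%, 2.7% and 0.022% of all probe sets. At an unadjusted p under 0.05 there were 1, 2 and 3 of the 6, beside 6.85%, 20.6% and 4.5% of all probe sets. In WT D14I against D7I, WT mature somatic embryos against D14I and *vtc2-5* D14I against D7I it also called 0, beside 7.94%, 14.7% and 3.9% of all probe sets. At an unadjusted p under 0.05 there were 1, 0 and 0 of the 6, beside 26.6%, 31.9% and 20.6% of all probe sets.

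The median difference over the 6 genes moved with the comparison. In mature somatic embryos against D14I it was -1.25 in *vtc2-5* and -0.41 in WT, beside -0.16 and 0.00 over all probe sets. Between the genotypes it was -0.69 for zygotic embryos, then 0.93 for D7I, 0.61 for D14I and 0.31 for mature somatic embryos, beside -0.01, 0.00, 0.02 and -0.15 over all probe sets. Among the 6, *AT1G75880*, *AT1G75890* and *AT1G75920* were below 30 on every WT array. The sizes of these medians are therefore uncertain, and no shift of the family is read from them.

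Among the measured genes of the GDSL list, which may not cover the family, *AT5G37690* resembled *AT2G23540* most. In *vtc2-5* it had 45.4 and 24.4 in zygotic embryos, 46.7 and 22.0 at D7I, 47.4 and 58.9 at D14I, and 378 and 350 in mature somatic embryos. In WT it had 546 and 72.6 in zygotic embryos, 34.4 and 16.9 at D7I, 111 and 93.9 at D14I, and 255 and 281 in mature somatic embryos. As with *AT2G23540*, both WT zygotic arrays were above both *vtc2-5* zygotic arrays, as in 17.4% of all probe sets. The WT pair was wide apart and replicate 1 was the higher of it. In *vtc2-5* zygotic embryos the order of the replicates differed between the 2 genes. Replicate 1 was the higher for *AT5G37690* (45.4 against 24.4) and the lower for *AT2G23540* (55.5 against 127). The difference of *AT5G37690* in zygotic embryos was -2.58 (SE 0.79) and was not called (limma adjusted p = 0.481), beside 0.0352% of probe sets called. These 2 genes share all their arrays.

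Likeness of pattern was measured as Pearson's r of log2(signal + 30) over the 16 arrays, among 8564 genes with a group mean signal of at least 100. The arrays fall into stages, so r mainly reflects the differences between stages. Genes that share these arrays are not independent of one another, and r is given as a description. The 5 genes most like *AT1G54020* were *AT4G22212* (0.987), *AT4G15680* (0.986), *AT5G66390* (0.986), *AT4G30170* (0.985) and *AT2G18210* (0.985). *AT5G66390* is *PEROXIDASE 72*. Over the 12 culture arrays alone they ranked between 6th and 14th, and without the added 30 between 2nd and 38th, so that the order among the closest genes depends on the scale.

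All 5 were high in mature somatic embryos, which follows from how they were chosen, since the likeness was measured on these arrays. The difference from D14I was 5.30 to 7.35 in *vtc2-5* and 5.70 to 7.64 in WT, against 5.78 in *vtc2-5* and 8.09 in WT for *AT1G54020*. *AT4G22212* had 3060.0 and 1832 in mature somatic embryos of *vtc2-5* and 2507 and 1980.1 in those of WT, and 14.9 to 66.8 on the other 12 arrays. At D7I *AT4G22212* had 60.6 and 41.0 in *vtc2-5* and 25.7 and 21.0 in WT. *AT2G18210* had 15.2 and 12.7 in *vtc2-5* and 2.27 and 1.94 in WT. In the rest of the 5 genes the genotypes overlapped at D7I. The WT values of *AT4G22212* and all those of *AT2G18210* were below 30. Nothing is read from these D7I values, since the genes were ranked on the same arrays.

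*JAL23*, a jacalin-related lectin gene, came from a list of 20 genes of the myrosinase system, ER bodies and the PYK10 complex, and ranked 42nd (r = 0.966). It had 368 and 529 in mature somatic embryos of *vtc2-5* and 1231 and 216 in those of WT. On the 12 earlier arrays it lay between 3.54 and 22.3. It rose in mature somatic embryos relative to D14I by 5.63 in *vtc2-5* (limma adjusted p = 0.00329) and by 4.77 in WT (limma adjusted p = 0.0107). Of the 7 measured genes of its list it was the one called higher in each of those 2 comparisons, beside 11.3% of probe sets in *vtc2-5* and 9.96% in WT. Against the mean of the 3 earlier stages, 7 of the 7 were called higher in *vtc2-5* mature somatic embryos and 6 in those of WT, beside 11.2% and 9.71% of probe sets. That mean includes the zygotic arrays. At D7I relative to zygotic embryos, 6 of the 7 were already called higher in *vtc2-5* and 5 in WT, beside 18% and 15.7% of probe sets. The list as a whole thus did not share the rise confined to mature somatic embryos. In WT mature somatic embryos, replicate 1 was the higher array both for *JAL23* and for *AT1G54020* (1217 against 651).

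**Figure D3:**
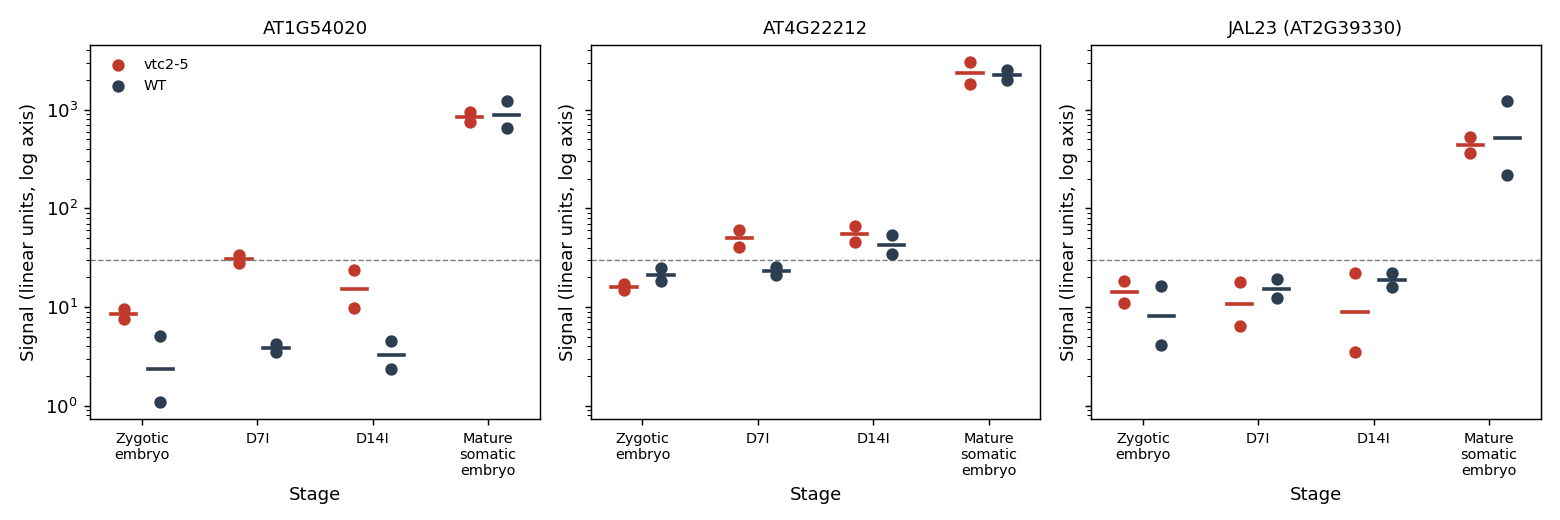
Signal on a log axis by stage for *AT1G54020*, for *AT4G22212*, the gene with the most similar pattern, and for *JAL23*. Points are single arrays (*vtc2-5* left of WT), bars are geometric means of 2 arrays and the dashed line marks a signal of 30. In all 3 panels the mature somatic embryo arrays stand above every earlier array, and for *AT1G54020* and *JAL23* the WT mature pair is wider apart than the *vtc2-5* pair.

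The 5 genes most like *AT2G23540* were *AT1G74460* (0.973), *AT4G24140* (0.964), *AT2G48130* (0.961), *AT3G22620* (0.957) and *AT4G38080* (0.956). *AT2G48130* is annotated as a lipid transfer protein gene and *AT4G38080* as a hydroxyproline-rich glycoprotein gene, and *AT5G37690* ranked 8th (0.925). *AT1G74460* is not on the GDSL list, and whether it belongs to the family was not examined here. It ranked 1st over the 12 culture arrays as well (0.988) and 3rd without the added 30. It had 24.3 and 196 in *vtc2-5* zygotic embryos and 730.2 and 292 in WT zygotic embryos. In mature somatic embryos it had 546 and 475 in *vtc2-5* and 357 and 413 in WT.

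The zygotic difference of these 5 genes ran from -4.37 to -2.25, on the same side as the -3.17 of *AT2G23540*, and their likeness was measured on those arrays too. In each of the 5 the pair of *vtc2-5* zygotic arrays lay below the WT pair, an order seen in 17.4% of all probe sets. The gap between the nearest arrays was small in some: 250.1 in *vtc2-5* beside 273 in WT for *AT2G48130*, and 599 in *vtc2-5* beside 690.0 in WT for *AT3G22620*. Replicate 2 was the higher *vtc2-5* zygotic array and replicate 1 the higher WT zygotic array in all 5, as in *AT2G23540*. Nothing is read from these orders, since the genes were ranked on the same arrays. For the mature stage relative to D14I the 5 genes had differences of 2.16 to 3.56 in *vtc2-5* and 1.30 to 3.36 in WT.

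*FACT*, which encodes a fatty alcohol:caffeoyl-CoA caffeoyl transferase, was the only gene paired with a probe set from a list of 24 genes of suberin and the Casparian strip. In *vtc2-5* it had 35.2 and 51.1 in zygotic embryos, 29.3 and 2.33 at D7I, 48.8 and 59.6 at D14I, and 478 and 551 in mature somatic embryos. In WT it had 52.1 and 72.6 in zygotic embryos, 17.7 and 2.05 at D7I, 99.2 and 118 at D14I, and 464 and 567 in mature somatic embryos. Over the 12 culture arrays its pattern was the third closest to *AT2G23540* (r = 0.987). Over all 16 arrays it ranked only 109th (0.781), since its zygotic signals were low in both genotypes, with a difference of -0.54 (limma adjusted p = 0.995). *FACT* rose in mature somatic embryos relative to D14I by 3.25 in *vtc2-5* (SE 1.12, limma adjusted p = 0.0498), beside 11.3% of probe sets called higher. In WT it rose at D14I relative to D7I by 4.16 (limma adjusted p = 0.0413), beside 4.15% called higher. The matching steps went the same way but were not called. They were 2.24 for WT mature somatic embryos relative to D14I and 2.71 for *vtc2-5* D14I relative to D7I. No difference in timing between the genotypes is read from these calls. The D7I signals of both genotypes were below 30, so the sizes of the differences from D7I are uncertain.

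**Figure D4:**
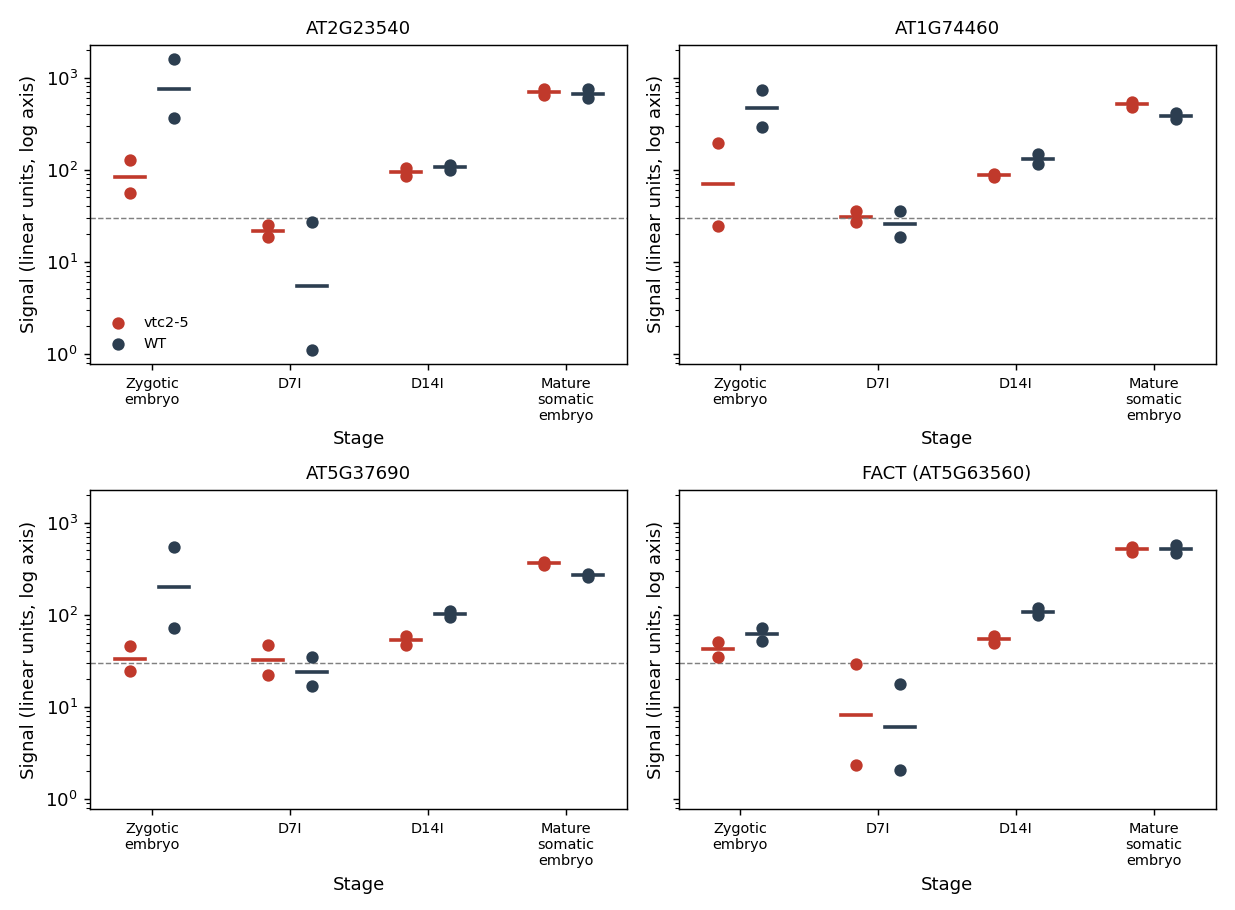
Signal on a log axis by stage for *AT2G23540*, *AT1G74460*, *AT5G37690* and *FACT*. Points are single arrays (*vtc2-5* left of WT), bars are geometric means of 2 arrays and the dashed line marks a signal of 30. In all 4 genes the D7I signals were low (at most 46.7) and the mature signals high (at least 255). In *vtc2-5*, the zygotic arrays of *AT5G37690* (45.4 and 24.4) and the *AT1G74460* zygotic array at 24.3 were about as low as D7I. The WT zygotic arrays stand above the *vtc2-5* zygotic arrays in each gene, by the smallest margin for *FACT* (35.2 and 51.1 in *vtc2-5*, 52.1 and 72.6 in WT). That zygotic order was seen in 17.4% of all probe sets.

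The 2 GDSL genes resembled each other only in part. Their r was 0.598 over the 16 arrays and 0.893 over the 12 culture arrays. Both were at their highest culture signals in mature somatic embryos, where both genotypes overlapped. They parted in zygotic embryos, where *AT1G54020* was at 9.57 and 7.56 in *vtc2-5* and 1.09 and 5.14 in WT, and *AT2G23540* at 55.5 and 127 in *vtc2-5* and 1583 and 361 in WT. They also parted at D14I, where *AT2G23540* had left the weak range on all 4 arrays and *AT1G54020* had not on any.

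By gene order in the RefSeq annotation, *AT1G54020* lies on chromosome 1 in a run of GDSL genes of the same list, with *GLIP3*, *GLL22* and *AT1G54010* before it and *MVP1* after it. None of these 4 was paired with a probe set in the annotation used here, so whether they share its profile was not analysed, and cross-hybridization of its probes with them was not tested. Of its 5 neighbours on each side, 2 had a probe set. *AT1G53970* did not exceed 21.0 on any array. *AT1G54050* was highest in zygotic embryos, with 1191 on both *vtc2-5* arrays and 3918 and 2468 on the WT arrays, and had 210 and 331 in mature somatic embryos of *vtc2-5* and 203 and 193 in those of WT.

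*AT2G23540* lies on chromosome 2. Of its neighbours, *AT2G23530* was between 81.5 and 336 on all arrays, with 127 and 111 in mature somatic embryos of *vtc2-5* and 160.0 and 168 in those of WT. *SDT*, which encodes a spermidine disinapoyl acyltransferase, had 1205 and 1928 in *vtc2-5* zygotic embryos and 1636 and 1393 in WT zygotic embryos, and at most 53.3 in mature somatic embryos. The measured neighbours of either gene thus did not share its high signal in mature somatic embryos.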

How the data were processed

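RNA of 16 samples was hybridized to ATH1 arrays, 1 array each. The intensity values deposited by the authors are linear signals, 1 for each probe set, scaled to a 2% trimmed mean of 500. The study's methods describe RMA values, which these are not, and the labels name GCOS. The genome build was not given in the sources used here, so no coordinates are printed, and no sequence is shown. Of 22810 probe sets 64 were controls. Of the rest, 13513 are paired with 1 gene, 503 with several and 8730 with none, and 13436 were matched to RefSeq.

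Log2 of the signal, without an offset, was compared with limma 3.58.1 in R 4.3.3. A mean was fitted for each of 8 groups, with 8 residual and 1.62 prior degrees of freedom. Calls needed a 2-fold difference besides an adjusted p under 0.05. The multiway SAM of the methods was not run, since it covers the contrasts that chose the genes. The fit was tested on simulated data. The precision is limited by 2 arrays per group. P values of the main fit rest on a spread between biological replicates that is pooled over the 8 groups. Nothing states that the replicates came from separate plants.

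The 2 genes and all gene lists were chosen with earlier results of these data known. GDSL genes were taken from a hand-written list, because the planned protein search had no protein table to run on. Named are both genes, up to 5 neighbours on each side, listed genes and the 5 most alike. Alternatives were an added 30, a floor of 30, a filter at 30, array weights, quantile normalization, a fit of the compared groups only, median centring, a trended prior, the replicate block and leaving out each array. Likeness without zygotic arrays, or without the added 30, was chosen after seeing the data.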

Additional observations from a re-analysis of the deposited data

How the results depend on the processing

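The call of *AT1G54020* in *vtc2-5* mature somatic embryos against D14I, and against the mean of the earlier stages, held under every alternative run. Its difference between *vtc2-5* D7I and zygotic embryos, 1.84, was called with a filter at a signal of 30 (limma adjusted p = 0.0423), with array weights (0.0340) and in the compared groups only (0.0163), and leaving out single arrays gave 1.67 to 2.01. For *AT2G23540*, the WT difference between D14I and D7I was not called with a floor of 30 (1.82), with a trended prior (4.27, limma adjusted p = 0.0530) or in the compared groups only (0.239), and single arrays moved it from 1.96 to 6.58. It lost its call in 13 of 16 such fits. The differences between mature somatic embryos and D14I became called with 30 added (2.54 in *vtc2-5*, 2.36 in WT), with a floor of 30 (2.88 and 2.66) and in the compared groups only (2.88 and 2.66), and ranged over 2.74 to 3.02 in *vtc2-5* and 2.51 to 2.81 in WT with 1 array left out. The cause was not tested beyond the weak signals given above.

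None of the genotype differences of *AT2G23540* in culture was called under any alternative, and some changed sign. The mean over the culture stages was -0.039 with a floor of 30 and -0.15 to 1.39 with 1 array left out. The D7I difference ran from -0.33 to 4.28, the mature one from -0.10 to 0.20, and the change of the difference from D7I to D14I from -4.45 to 0.16. With 1 array left out, the D14I difference kept its sign (-0.31 to -0.027), as did the change of the difference from D14I to mature somatic embryos (0.072 to 0.37). The lowest D7I difference, the lowest culture mean and the 0.16 came without WT D7I replicate 2. The mature difference was -0.10 without WT replicate 1 and -0.07 without *vtc2-5* replicate 1.

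Counts of called genes among the 6 listed GDSL genes were small and moved by over 1.5 times: 0 to 1 between genotypes in mature somatic embryos (1 as reported), 0 to 1 between genotypes in zygotic embryos, at D7I, and in WT D14I against D7I (0 as reported), 0 to 2 in WT D7I against zygotic embryos (2), 1 to 2 in *vtc2-5* D7I against zygotic embryos (2) and 0 to 3 in *vtc2-5* mature somatic embryos against D14I (2).

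Replicate numbers are shared by the groups in the labels but did not pair the samples: deviations of same-numbered arrays correlated at -0.14 to 0.16 over 28 pairs of groups, with a median of -0.02 and 3 above 0.1. With the replicate number as a block, the WT difference of *AT2G23540* between D14I and D7I was 4.27 and was not called (limma adjusted p = 0.0565), and no other call of the 2 genes changed. Signal over background limits both genes at D7I, and *AT1G54020* at all but the mature stage.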
